A study of Mus musculus with 8 samples.

Results

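The type I interferon–stimulated antiviral genes described here are 35 genes chosen by symbol, out of 53247 genes listed in the deposited table. They are the sensors, IFIT, OAS, ISG15, Mx and other effector genes that cells switch on after exposure to type I interferon. All 35 were found once in the table and all 35 were expressed highly enough to be tested. They were measured by RNA-Seq in tumor-associated macrophages (TAMs). These were taken by flow cytometry from subcutaneous LLC tumors, grown from a mouse line of Lewis lung carcinoma, with a gate for CD45+ and CD11b+ that also required MHCII+ and F4/80+. The 2 groups were 4 samples from WT mice and 4 from miR-21 null mice, both of the strain given as C57/BL6, listed as 10 weeks old and carrying tumors for 14 days. The purpose of the comparison was to see how TAMs differ when miR-21, a microRNA abundant in macrophages, is missing. The null allele was present in the whole mouse and was not restricted to macrophages.

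Type I interferons (IFN-α and IFN-β) bind the receptor made of IFNAR1 and IFNAR2, whose kinases JAK1 and TYK2 pass the signal to transcription factors. These bind interferon-stimulated response elements (ISREs) in the promoters of antiviral genes. IFN-γ acts through another receptor and mainly on another element, the gamma-activated site (GAS). Many genes answer to both kinds of interferon. In tumors, type I interferon acts on macrophages and dendritic cells and is known for its part in priming T cells.

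The values are CPM, that is, counts per 1e+06 reads, as the authors deposited them. From the steps between low values, the depth was 20.2 to 29.9 in units of 1e+06 reads in the WT samples and 26.0 to 33.4 in the miR-21 null samples, so that 1 read was worth 0.0300 to 0.0495 CPM. The lowest value of any member in any sample corresponded to about 108 reads. Mir21a, the deleted gene (chr11:86584067-86584158, minus strand, GRCm38), was listed at 0.0001 CPM in all 8 samples, so it does not check the genotype labels. Markers of macrophages summed to 6963 to 7971 CPM in WT and 5979 to 7404 CPM in miR-21 null samples. Those of plasmacytoid dendritic cells, a strong source of IFN-α, summed to 1.40 to 2.10 and 1.47 to 2.05 CPM. The latter markers were too low to be tested and did not move as 1 group. Pacsin1 was higher in every null sample (0.139 to 0.346 CPM in WT, 0.635 to 1.19 CPM in null samples). Cox6a2 and Klk1 were lower in every null sample, and Siglech and Ccr9 overlapped. Of the macrophage markers, Csf1r and Adgre1 were lower in every null sample than in any WT sample, as were 25.7% of all tested genes. Their log2 fold changes were -0.48 and -0.38 (limma adjusted p = 0.00538 and 0.0014), without passing the threshold defined below. The other 4, Itgam, Ptprc, H2-Ab1 and Cd68, gave -0.066, -0.23, -0.011 and 0.13 with overlapping groups (limma adjusted p = 0.576, 0.129, 0.972 and 0.167). Among the marker lists, that of fibroblasts alone held genes past it, Col1a1 (-2.29) and Pdgfra (-1.89), and summed to 34.0 to 67.3 CPM in WT and 5.11 to 20.3 CPM in null samples. Cd8a, a T cell marker, was at 1.32 to 2.19 CPM in WT and 2.80 to 11.6 CPM in null samples (log2 fold change 1.28, limma adjusted p = 0.00804). The other 4 T cell markers, Cd3e, Cd3d, Cd3g and Trac, gave 0.26, 0.0019, 0.29 and 0.067 with overlapping groups (limma adjusted p = 0.545, 0.995, 0.501 and 0.832). The samples are labelled biological replicates, but the title of miR-21 null replicate 1 joins a pair of sample numbers and does not say whether mice were pooled. That library stood apart in this gene group. It had the highest value of its genotype in 31 of the 35 members, against 23.7% of all tested genes, and it also had the highest summed markers of T cells (31.5 CPM, against 7.22 to 18.0 in the other null samples), NK cells (15.6 against 6.26 to 12.5) and B cells (4.32 against 0.414 to 0.768). Most of its NK cell sum was Prf1, at 14.7 CPM. Ncr1 and Klrb1c were at 0.261 and 0.641 CPM in that library and were not tested. The part of any of these cells in the values below was not tested, and the main counts are also given without that library. In such bulk samples, fewer cells of a type and less RNA per cell cannot be told apart.

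Promoter sequence was looked up for the members, because the response element is what the group is known to share and the choice of symbols did not use it. RefSeq promoters (GRCm38.p6, 250 bases before to 50 after the start site) were held for 27 of the 35 members. No entry was used for Dhx58, Zbp1, Oas2, Usp18, Mx1, Mx2, Ifi27l2a and Rtp4. An ISRE, searched as GAAANNGAAA on both strands (TTTCNNTTTC on the other), was found in 15 of the 27 promoters (55.6%), against 3.99% of 27025 genes with a promoter in the table. A GAS, searched as TTCNNNGAA, which reads the same on both strands, was found in 8 of the 27 (29.6%), against 9.55% of all. The promoters of Oas1a, Bst2, Ifitm3 and Eif2ak2 held both, and in Bst2 and Ifitm3 the GAS overlapped an ISRE. Those of 8 members, Oasl1, Oasl2, Herc6, Cmpk2, Ifi44, Xaf1, Samd9l and Phf11d, held neither, which says only that these letters are not in this window.

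The following stretches are shown because they carry the element in the members whose values are compared most closely below: the classic targets Isg15, Rsad2 and Ifit1, and 2 pairs of near-copies, Ifit3 with Ifit3b and Oas1a with Oas1g. Each is printed 5′ to 3′ along the gene's strand, with matches to the ISRE in capitals. They lie at chr4:156200851-156200920 (Isg15, minus strand), chr12:26456539-26456596 (Rsad2, minus), chr19:34640761-34640837 (Ifit1, plus), chr19:34583349-34583440 (Ifit3, plus), chr19:34607745-34607836 (Ifit3b, plus), chr5:120907526-120907569 (Oas1a, minus) and chr5:120887614-120887655 (Oas1g, minus).
Isg15: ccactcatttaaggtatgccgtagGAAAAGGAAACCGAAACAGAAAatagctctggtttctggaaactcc
Rsad2: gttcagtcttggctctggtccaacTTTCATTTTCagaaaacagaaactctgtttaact
Ifit1: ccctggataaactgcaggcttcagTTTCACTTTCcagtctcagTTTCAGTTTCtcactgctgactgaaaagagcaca
Ifit3: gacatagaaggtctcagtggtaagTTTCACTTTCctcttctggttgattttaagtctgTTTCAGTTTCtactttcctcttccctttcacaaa
Ifit3b: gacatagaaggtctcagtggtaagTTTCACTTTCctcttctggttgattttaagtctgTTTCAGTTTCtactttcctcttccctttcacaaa
Oas1a: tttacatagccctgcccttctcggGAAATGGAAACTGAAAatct
Oas1g: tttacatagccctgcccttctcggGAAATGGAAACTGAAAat

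Isg15 holds 3 overlapping matches in 1 run, Ifit1 holds 2 separate ones and Rsad2 holds 1. The stretches of Ifit3 and Ifit3b were identical over 92 of 92 bases, and those of Oas1a and Oas1g over 42 of 42 bases. Within each of these pairs, reads from near-identical parts of the transcripts may have been shared between the genes, so the values of all 4 are uncertain in that respect.

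As a group, the 35 members did not move together between the genotypes. By the threshold of an adjusted p at or under 0.005 with a fold change over 1.5 (limma), 3 of 35 members rose in miR-21 null TAMs and none fell, against 2.89% of the 13850 tested genes that were higher and 4.23% that were lower. The 3 were Zbp1, Herc6 and Dhx58. After rescaling by the median of ratios Ifitm3 passed as well (4 members), and the genes past the threshold were then 520 higher and 350 lower, in place of 400 and 586. At an adjusted p at or under 0.05 with no fold limit, 9 were higher, 4 lower and 22 neither, against 9.49% and 26.5% of all tested genes. The lower side of that count depended on the scaling, with 10 higher and 0 lower by median of ratios (15.6% and 14.7% of all genes) and 10 and 1 by quantiles (13.7% and 16.3%). Without miR-21 null replicate 1 there were 7 higher and 6 lower (9.31% and 22.7% of all genes). The lower members fell to Oas2 alone on leaving out WT replicate 1, null replicate 2 or null replicate 3, and to Oas2 and Bst2 without WT replicate 4. At an unadjusted p under 0.05 there were 15 members, against 46.4% of all tested genes. The median log2 fold change of the 35 was 0.13, beside a median of -0.10 over all tested genes. Of the 35, 24 were above 0 and 11 below, against 4600 above and 9250 below of the 13850 tested genes. Without null replicate 1 the median of the 35 was 0.081, with 20 above 0 and 15 below. It was 0.045 without WT replicate 3, 0.21 without WT replicate 1 and 0.20 without WT replicate 4. By median of ratios it was 0.24 and by quantiles 0.21. All fold changes are miR-21 null over WT and refer to CPM + 1.

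**Figure D1:**
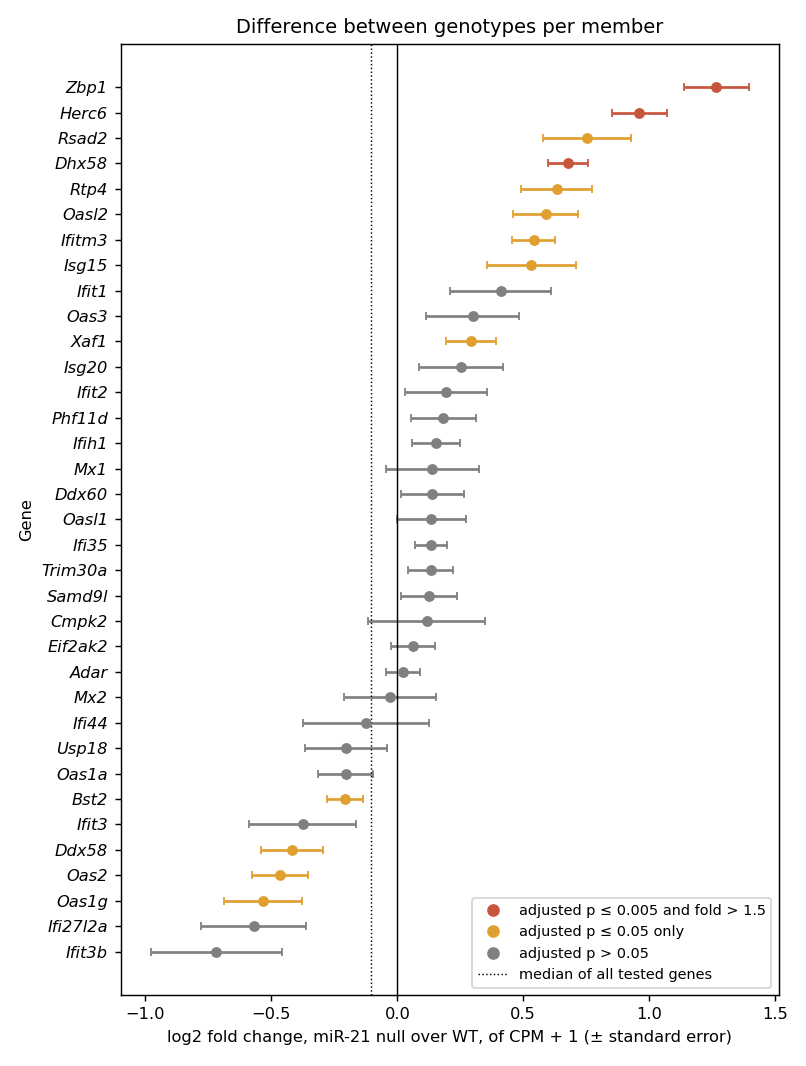
The log2 fold change of CPM + 1, miR-21 null over WT, is plotted for each of the 35 members with its standard error from limma (4 samples per genotype), and colors mark which limit of adjusted p and fold each passed. Zbp1, at 1.27, is at the top and Ifit3b, at -0.72, is at the bottom, and the dotted line is the median of all tested genes, -0.10.

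Among the cytosolic sensors, the strongest difference was that of Zbp1 (chr2:173206612-173218923), which binds left-handed Z-form nucleic acid and can trigger necroptosis. With replicates in order from 1 to 4, as in all such lists here, its values were 66.1, 48.1, 52.3 and 75.0 CPM in WT and 164, 141, 140.2 and 134 CPM in miR-21 null samples. Every null sample lay above every WT sample, and the log2 fold change was 1.27 (standard error 0.13, limma adjusted p = 0.000114). Dhx58 (chr11:100694884-100704271), which encodes LGP2, a relative of RIG-I and MDA5 that tunes their signaling, had 70.1, 57.3, 64.5 and 69.8 CPM in WT and 112, 113, 96.9 and 99.0 CPM in null samples. The groups did not overlap, with a log2 fold change of 0.68 (standard error 0.08, limma adjusted p = 0.000243). Ddx58 (chr4:40203773-40239828), which encodes RIG-I, the receptor for triphosphate-bearing RNA, went the other way. It had 91.8, 71.7, 63.5 and 87.2 CPM in WT and 69.2, 53.0, 53.4 and 57.3 CPM in null samples. Null replicate 1 lay above WT replicate 3, and the log2 fold change of -0.42 (standard error 0.12, limma adjusted p = 0.0242) did not pass the threshold. For Ifih1, which encodes MDA5, the sensor of long double-stranded RNA, the log2 fold change was 0.15 (limma adjusted p = 0.237). Ddx60, a helicase linked to RIG-I signaling, gave 0.14 (limma adjusted p = 0.409).

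The IFIT proteins bind viral RNA and block its translation. Their genes lie side by side on chromosome 19, and none of the 4 reached an adjusted p of 0.05. That call changed in other fits, since Ifit3b reached it on the lower side without null replicate 1, without WT replicate 3 and with sample weights. With a block for the replicate number, Ifit3b reached it on the lower side and Ifit1 on the higher side. That number only follows the order of listing, so nothing is read from the block. Ifit1 (chr19:34640871-34650009) had 36.9, 25.9, 18.4 and 33.2 CPM in WT and 49.4, 32.3, 34.5 and 34.3 CPM in null samples, a log2 fold change of 0.41 (standard error 0.20, limma adjusted p = 0.138). Ifit2 was at 61.1 to 103 CPM in WT and 84.0 to 121 CPM in null samples, with a log2 fold change of 0.19. In both genes null samples 2 to 4 lay within the WT range, and null replicate 1 lay above it as the highest of all samples.

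Ifit3 and Ifit3b, whose response elements are the same letters, had values that leaned to the WT side. Ifit3 (chr19:34583531-34588731) had 58.3, 41.3, 33.3 and 63.9 CPM in WT and 51.7, 33.4, 31.7 and 32.3 CPM in null samples, a log2 fold change of -0.38 (standard error 0.21, limma adjusted p = 0.192). Ifit3b (chr19:34607970-34613401) had 11.8, 9.98, 5.95 and 14.9 CPM in WT and 9.16, 5.08, 4.19 and 5.58 CPM in null samples. At -0.72 it had the lowest log2 fold change of the 35 members, but also the largest error (standard error 0.26, limma adjusted p = 0.0539). With a pseudocount of 10 it was at -0.36, and Ifi27l2a, at -0.47, was then the lowest. In both genes WT replicate 3 lay inside the null range and null replicate 1 inside the WT range.

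The OAS enzymes make oligoadenylates that activate RNase L, which degrades RNA, and the OAS-like proteins are their relatives. The genes of the 4 enzymes lie in 1 cluster on chromosome 5. Of these, Oas2 (chr5:120730333-120749853) had 121, 97.9, 95.3 and 112 CPM in WT and 96.2, 70.5, 70.9 and 71.0 CPM in null samples. Only null replicate 1 reached the WT range, and the log2 fold change was -0.47 (standard error 0.11, limma adjusted p = 0.00975). Oas1g (chr5:120876142-120887613) had 46.4, 36.1, 28.7 and 46.5 CPM in WT and 32.4, 22.6, 25.4 and 26.2 CPM in null samples, again with an overlap through null replicate 1, and a log2 fold change of -0.53 (standard error 0.16, limma adjusted p = 0.0235). Its near-copy Oas1a was at 69.8 to 96.2 CPM in WT and 66.1 to 84.0 CPM in null samples, with a log2 fold change of -0.20 (limma adjusted p = 0.171). Oas3, between Oas2 and Oas1g in the cluster, was at 44.4 to 75.9 CPM in WT and 63.1 to 93.2 CPM in null samples, with a log2 fold change of 0.30 (limma adjusted p = 0.232). Oas2 and Oas1g thus passed an adjusted p of 0.05 on the lower side, but neither passed the threshold. By median of ratios neither passed 0.05, and by quantiles Oas2 did and Oas1g did not.

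Oasl2 (chr5:114896936-114912234) lies beside Oasl1 (chr5:114923240-114937915), away from the other cluster. Oasl2 had 161, 111, 120.0 and 156 CPM in WT and 242, 201, 196 and 181 CPM in null samples. The groups did not overlap, and the log2 fold change was 0.59 (standard error 0.13, limma adjusted p = 0.00637), just short of the threshold. Oasl1, known to restrain the translation of IRF7, was at 22.6 to 35.1 CPM in WT and 29.2 to 37.5 CPM in null samples, a log2 fold change of 0.13 (limma adjusted p = 0.472). Neither promoter window held an ISRE or a GAS as searched.

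Isg15 encodes a ubiquitin-like protein that is attached to other proteins, in mouse mainly by the ligase HERC6, and is taken off again by USP18. Herc6 (chr6:57581000-57664632) had 39.6, 32.6, 30.3 and 45.3 CPM in WT and 70.9, 68.1, 75.2 and 74.0 CPM in null samples. The groups were far apart, with a log2 fold change of 0.96 (standard error 0.11, limma adjusted p = 0.000224), and null replicate 1 was not the highest. Isg15 itself (chr4:156199424-156200818) had 37.3, 23.3, 23.1 and 39.4 CPM in WT and 52.9, 40.6, 41.2 and 40.8 CPM in null samples. These did not overlap, but WT replicate 4 and null replicate 2 were close, at 39.4 and 40.6 CPM, and the log2 fold change of 0.53 (standard error 0.18, limma adjusted p = 0.0396) did not pass the threshold. Usp18, which also dampens signaling at IFNAR2, was at 10.5 to 17.1 CPM in WT and 10.3 to 15.4 CPM in null samples, a log2 fold change of -0.20 (limma adjusted p = 0.354). The ligase, its substrate and the protease thus gave 0.96, 0.53 and -0.20.

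**Figure D2:**
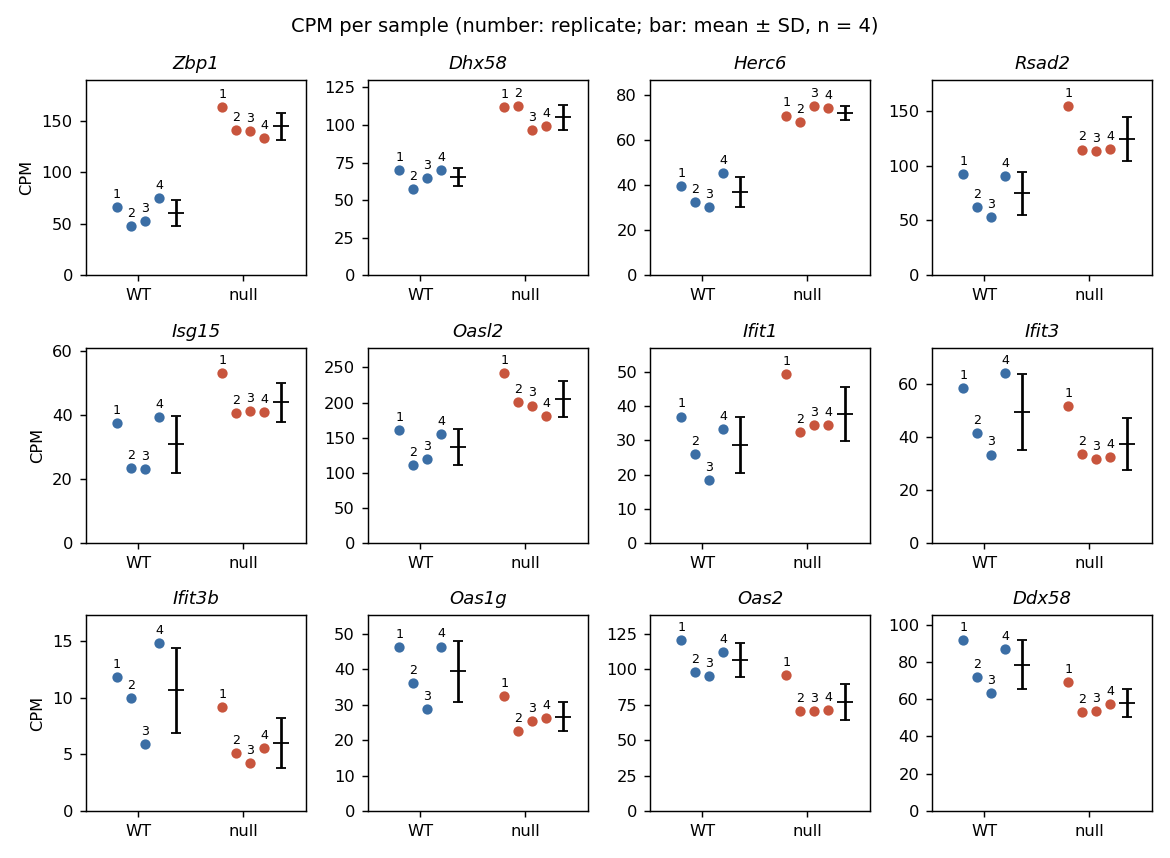
CPM per sample is plotted for 12 members in the 4 WT and 4 miR-21 null samples, each point labelled with its replicate number, with a bar for the mean ± SD. In Zbp1, Dhx58 and Herc6 the genotypes stand apart, whereas in Ifit3, Ifit3b, Oas1g, Oas2 and Ddx58 null replicate 1 (51.7, 9.16, 32.4, 96.2 and 69.2 CPM) reaches into the WT range.

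The Mx proteins are GTPases that trap incoming virus particles. Mx1 (chr16:97447035-97462907) had 67.7, 46.5, 41.1 and 60.1 CPM in WT and 82.7, 53.8, 48.2 and 53.7 CPM in null samples. Null samples 2 to 4 lay within the WT range and null replicate 1 above it, and the log2 fold change was 0.14 (standard error 0.19, limma adjusted p = 0.589). Mx2, which the annotation of the table calls a polymorphic pseudogene, was at 7.83 to 13.3 CPM in WT and 7.81 to 13.6 CPM in null samples, with a log2 fold change of -0.03 (limma adjusted p = 0.91). Of the members that act at membranes, Ifitm3 (chr7:141009586-141010770), which hinders the fusion of viruses in endosomes, had 509.9, 399, 444 and 464 CPM in WT and 738, 629.5, 647 and 628 CPM in null samples. The groups did not overlap. Its log2 fold change of 0.54 (standard error 0.09, limma adjusted p = 0.00117) met the limit of p but not that of fold. Bst2, or tetherin, which holds budding virus at the cell surface, was at 40.7 to 46.4 CPM in WT and 34.6 to 41.3 CPM in null samples, with a log2 fold change of -0.21 (standard error 0.07, limma adjusted p = 0.0433).

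Rsad2 and Cmpk2 are neighbors on chromosome 12, read in opposite directions. Rsad2 (chr12:26442746-26456452) encodes viperin, which makes a chain-terminating nucleotide from CTP, and Cmpk2 (chr12:26469204-26479837) encodes a nucleotide kinase of mitochondria. Rsad2 had 92.2, 62.4, 53.5 and 90.5 CPM in WT and 154, 115, 113 and 115 CPM in null samples, without overlap. Its log2 fold change of 0.75 (standard error 0.17, limma adjusted p = 0.00835) exceeded the limit of fold but not that of p. Cmpk2 had 30.4, 19.7, 15.4 and 28.6 CPM in WT and 36.3, 25.3, 20.8 and 19.3 CPM in null samples, and its groups overlapped widely (log2 fold change 0.12, standard error 0.23, limma adjusted p = 0.726). The other enzymes on nucleic acids were close to 0. Isg20, an exonuclease, gave 0.25, Eif2ak2, the kinase PKR that halts translation, gave 0.06, and Adar, which edits double-stranded RNA, gave 0.02 (limma adjusted p = 0.258, 0.608 and 0.827). Adar overlaps Chrnb2 on the other strand, which had a mean of 6.71 CPM against 109 CPM for Adar. In the other 6 members that overlap a tested gene (Dhx58, Oas2, Herc6, Eif2ak2, Ifi35 and Rtp4), the overlapping gene had a mean of at most 1.45 CPM, and whether the counting used strand is not given in the sources used here.

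Among the remaining induced genes, Rtp4 (chr16:23520291-23614222), which encodes a chaperone of receptors, had 54.9, 34.8, 39.4 and 51.9 CPM in WT and 81.9, 69.1, 64.6 and 63.7 CPM in null samples. The groups did not overlap, and the log2 fold change was 0.63 (standard error 0.14, limma adjusted p = 0.00676). Ifi27l2a (chr12:103442167-103443680), a small hydrophobic protein strongly induced by interferon, had 68.1, 39.8, 34.7 and 55.2 CPM in WT and 43.4, 27.6, 31.4 and 27.4 CPM in null samples. Here only null replicate 1 reached the WT range, with a log2 fold change of -0.57 (standard error 0.21, limma adjusted p = 0.0562). Ifi44 (chr3:151730922-151749960) had the largest SD of log2 values in WT, with 13.1, 9.49, 5.34 and 13.3 CPM. It had 11.5, 6.63, 8.26 and 9.72 CPM in null samples (log2 fold change -0.13, standard error 0.25, limma adjusted p = 0.725). Xaf1, a partner of the apoptosis inhibitor XIAP, was at 22.6 to 28.6 CPM in WT and 28.5 to 37.8 CPM in null samples, a log2 fold change of 0.29 (limma adjusted p = 0.0429). The other 4, Ifi35, Samd9l, Trim30a and Phf11d, gave 0.13 to 0.18, with limma adjusted p between 0.126 and 0.4.

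In 8 members the 4 null values all lay above the 4 WT values, and in none did they all lie below, against 9.44% and 25.7% of all tested genes. The 8 were Dhx58, Zbp1, Oasl2, Isg15, Herc6, Ifitm3, Rsad2 and Rtp4. The shares over all genes moved with the scaling. By median of ratios 10 members lay above and 0 below, against 16.0% and 15.1%, and by quantiles 10 and 0, against 14.5% and 16.7%, with Ifi35 and Xaf1 added in both. Leaving out single libraries changed both sides. Without miR-21 null replicate 1, the same 8 lay above and 7 lay below, namely Ddx58, Ifit3b, Oas1a, Oas1g, Oas2, Bst2 and Ifi27l2a, against 12.0% and 29.2% of all genes tested then. Without WT replicate 3, again the same 8 lay above and 4 lay below, Ddx58, Ifit3b, Oas1g and Oas2, against 11.1% and 27.8%. Without WT replicate 4, 11 lay above and 0 below, against 11.1% and 31.7%, with Ifi35, Xaf1 and Phf11d added. Without WT replicate 1, null replicate 2 or null replicate 4, 9 lay above and 0 below. The shares of all genes were then 9.98% to 11.0% and 28.9% to 30.5%. Zbp1, Herc6 and Dhx58 passed the threshold without null replicate 1 as well, and no other member did.

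A score was formed for each sample as the mean over the 35 members of the log2 value minus the mean of that gene over the 8 samples. In the order of the replicate numbers, the WT samples had 0.17, -0.20, -0.37 and 0.12, and the null samples 0.33, -0.013, -0.029 and -0.011. The group means were -0.070 ± 0.260 and 0.070 ± 0.175 (SD, n = 4 each). The difference of 0.14 was smaller than either SD, and the groups overlapped, with null samples 2 to 4 lying between the low and the high WT samples. By median of ratios it was 0.25 and by quantiles 0.21, beside pooled SDs of 0.245 and 0.244. Without null replicate 1 the difference was 0.052 and without WT replicate 3 it was 0.040, whereas without WT replicate 1 it was 0.22, beside a pooled SD of 0.216, and without WT replicate 4 it was 0.20. For comparison, a score over 15 interferon-inducible GTPases of the GBP and IRG families, which are known to answer strongly to IFN-γ, was -1.05, -1.16, -0.84 and -0.58 in WT and 0.96, 0.90, 0.82 and 0.95 in null samples. Its groups did not overlap, and 14 of the 15 GTPases passed the threshold on the higher side, with a median log2 fold change of 1.72. Their rank among WT samples was not that of the members, since WT replicate 1 had the highest score of the 35 and the second lowest of the GTPases.

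**Figure D3:**
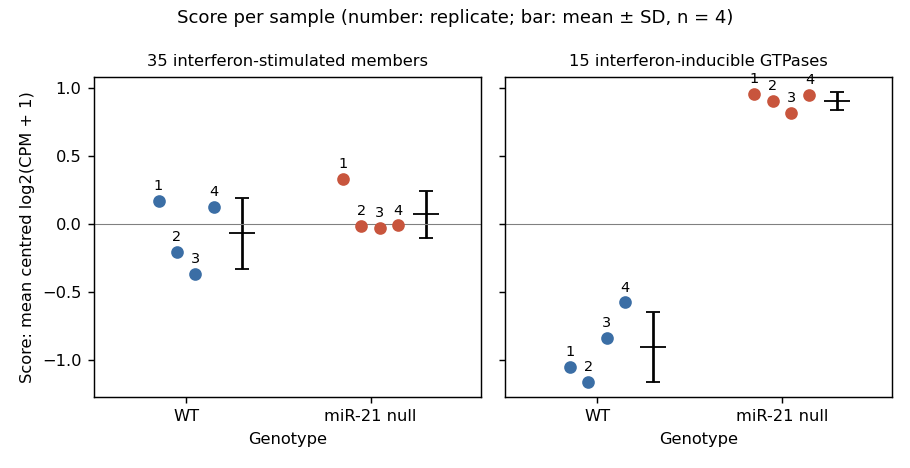
The score of each sample, the mean centered log2(CPM + 1), is plotted for the 35 members (left) and for 15 interferon-inducible GTPases (right), with the replicate number at each point and a bar for the mean ± SD (n = 4). The member score of the genotypes overlaps, whereas that of the GTPases lies from -1.16 to -0.58 in WT and from 0.82 to 0.96 in miR-21 null samples.

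Within a genotype, the members varied together from sample to sample. WT replicate 1 was the highest WT sample in 22 members and WT replicate 4 in 12, while WT replicate 3 was the lowest in 28. Over all tested genes, the same samples were highest in 16.7% and 25.1% and lowest in 19.5%. The SD of log2(CPM + 1) had a median over the members of 0.297 in WT and 0.176 in null samples, beside 0.126 and 0.115 over all tested genes. It was above that of the median gene in 32 members in WT and 26 in null samples, and larger in WT than in null samples for 28 of 35. Without null replicate 1, the median over the members in the other null samples was 0.062, beside 0.0963 over all genes tested, and nothing is read from this, since the library left out was the highest of its genotype in most members.

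The largest SDs in WT were those of Ifi44 (0.549) and Ifit3b (0.506), both with a 2.50-fold range of CPM, and Cmpk2 (0.442). In null samples they were those of Ifit3b (0.414), Cmpk2 (0.393) and Mx1 (0.340). The steadiest members in WT were Adar (0.050) and Bst2 (0.088). The deviations of a pair of members from their genotype means, taken over the 8 samples, had a median Pearson correlation of 0.8 over the 595 pairs, beside 0.617 over the 105 pairs of the GTPases and 0.031 over all pairs of tested genes. That is a description only, since all pairs share the same libraries and their depths.

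**Figure D4:**
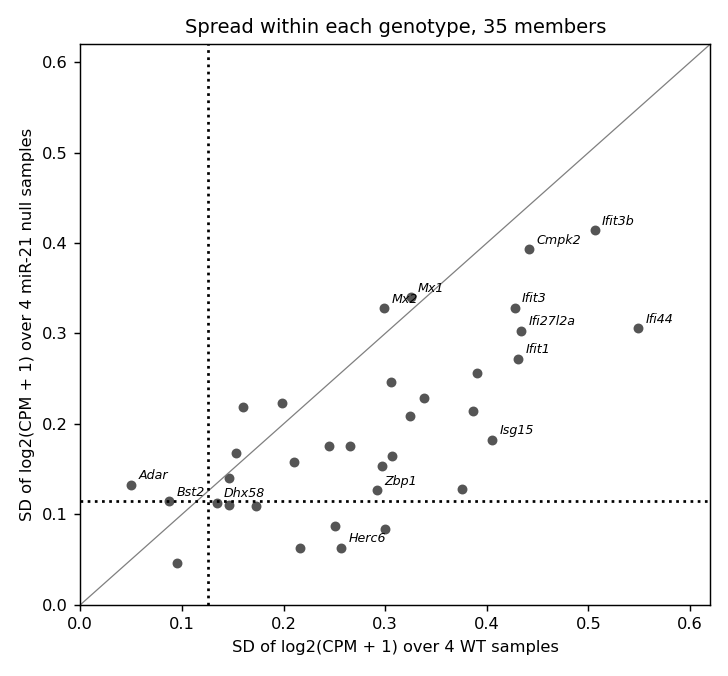
The SD of log2(CPM + 1) over the 4 miR-21 null samples is plotted against that over the 4 WT samples, 1 point per member. Points to the right of the diagonal (28 of 35) varied more among WT samples, and the dotted lines mark the median of all tested genes (0.126 in WT, 0.115 in null samples).

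Markers of other myeloid cells were set beside the member score. Markers of monocytes (Ly6c2, Plac8, Chil3 and Ccr2) summed to 840, 519, 448 and 496 CPM in WT and to 626, 415, 409 and 349 CPM in null samples, in the order of their numbers. They were highest in WT replicate 1 and null replicate 1 and, in WT, lowest in replicate 3, as was the member score. Beyond these samples the orders differed. WT replicate 4 had a lower sum than WT replicate 2 (496 against 519 CPM) but a higher score (0.12 against -0.20). Null replicate 1 had a lower sum than WT replicate 1 but a higher score (0.33 against 0.17). Null replicate 4 had the lowest null sum, whereas null replicate 3 had the lowest null score (-0.029). Most of the sum was Ccr2, at 333 to 669 CPM in WT, whereas Chil3 was highest in WT replicate 2 (56.4 CPM) and lowest in WT replicate 4 (21.5 CPM). Markers of neutrophils were highest in WT replicate 1 (1099 CPM) and lowest in WT in replicate 3 (716 CPM). In null replicate 1 their sum of 606 CPM lay within the 531 to 699 CPM of the other null samples. Their sums were thus lower in every null sample than in any WT sample. Csf3r, S100a9, S100a8 and Retnlg gave log2 fold changes of -0.39, -0.62, -0.52 and -0.81 (limma adjusted p = 0.00259, 0.0292, 0.0488 and 0.0427). Ly6g gave 0.31 (limma adjusted p = 0.27), and no neutrophil marker passed the threshold. Plac8 was at 54.8 to 98.0 CPM in WT and 30.1 to 57.0 CPM in null samples (log2 fold change -0.96, limma adjusted p = 0.00867). All 4 monocyte markers were detected in every sample and none of them passed the threshold between genotypes. Ly6c2, itself known to be induced by interferon, was at 8.90 to 29.5 CPM in WT and 16.8 to 37.2 CPM in null samples, with WT replicate 3 lowest and null replicate 1 highest. The part of monocytes in the member values was not tested.

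To describe what remained beside the shared shift, the mean of the other 34 members in each sample was subtracted from each member, a step chosen after the data had been seen. The median SD was then 0.160 in WT and 0.0927 in null samples. On this relative scale the groups did not overlap in 16 members, 8 higher and 8 lower in null samples, and without null replicate 1 there were again 8 and 8. The shares of all tested genes treated alike were 2.43% and 13.1%, and 4.81% and 13.2% without that library. Nothing is read from them, since the subtraction narrows the spread of the members and widens that of the median gene, to 0.313 in WT and 0.220 in null samples. The 8 higher ones were those named above. The 8 lower ones were Ddx58, Ifit3, Ifit3b, Oas1a, Oas1g, Oas2, Usp18 and Ifi27l2a. Since the shift is taken from the members themselves, some must lie above it and others below, and the split is a description. The largest differences on this scale were 1.16 for Zbp1 and 0.85 for Herc6 on the one side and -0.88 for Ifit3b and -0.73 for Ifi27l2a on the other.

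**Figure D5:**
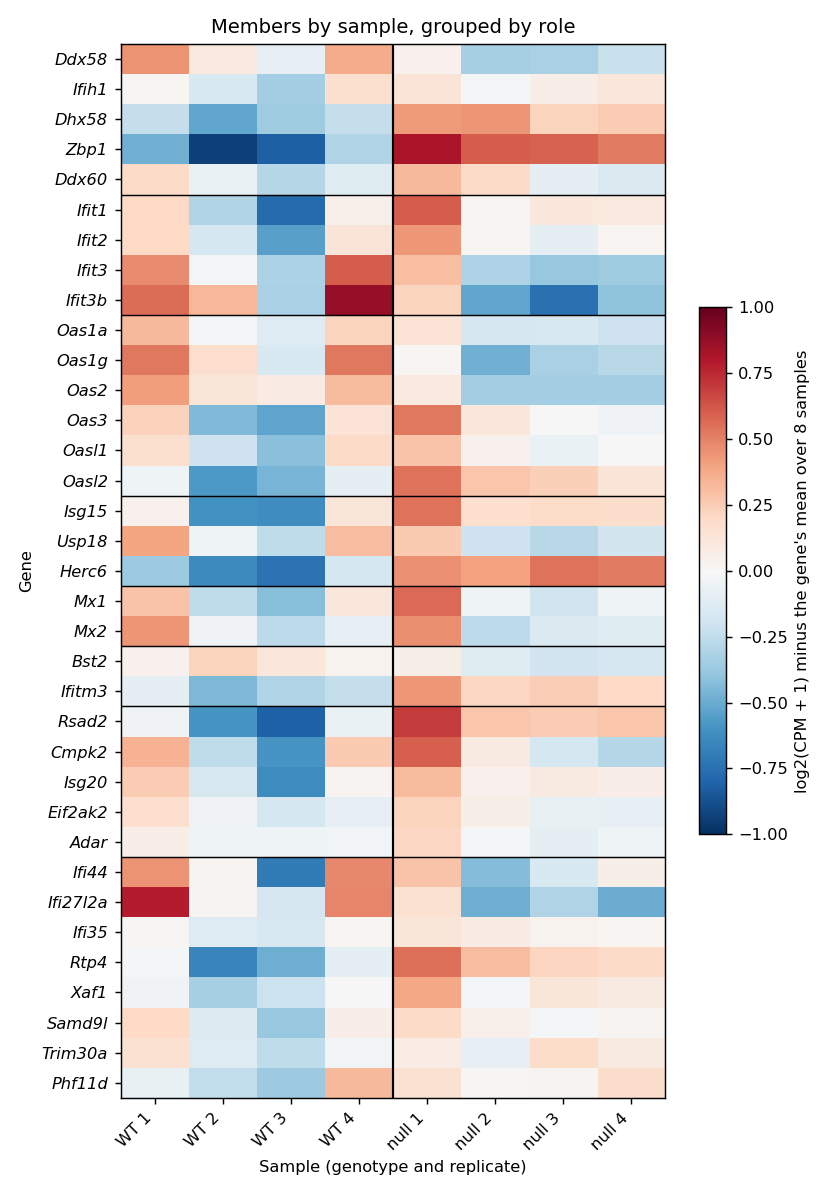
For each of the 35 members (rows, grouped by role) and 8 samples (columns), color gives log2(CPM + 1) minus the mean of the gene over all samples. Among the null columns, that of replicate 1 has the highest value in 31 rows, and among the WT columns that of replicate 3 the lowest in 28, whereas the rows of Zbp1, Herc6 and Dhx58 change color at the line between genotypes.

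The pathway upstream of the members was looked at through 30 genes, of which 25 were tested. Of the ligands, Ifna1, Ifna2, Ifna4 and Ifna5 were listed at 0.0001 CPM in all samples, and Ifnb1 did not exceed 0.150 CPM in any. Ifng was at 0.208 to 0.866 CPM in WT and 0.995 to 3.58 CPM in null samples, a log2 fold change of 1.11 (standard error 0.24, limma adjusted p = 0.00554), short of the threshold. By the threshold 2 of the 25 rose, Socs1 (2.14) and Irf1 (1.63), and 1 fell, Ifngr1 (-0.72), against 2.89% and 4.23% of all tested genes. At an adjusted p at or under 0.05, 9 were higher and 8 lower, against 9.49% and 26.5%.

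Irf1, a transcription factor induced by interferon, was at 103 to 144 CPM in WT and 327 to 447 CPM in null samples, with no overlap between genotypes (limma adjusted p = 1.61e-05). Stat2 and Irf9, transcription factors of the type I response, gave log2 fold changes of 0.32 (limma adjusted p = 0.0158) and 0.04 (limma adjusted p = 0.635). Irf7, which amplifies the response, was at 129.9 to 256 CPM in WT and 155 to 213 CPM in null samples, with -0.06 (limma adjusted p = 0.832). The receptor genes Ifnar1 and Ifnar2 gave -0.32 and -0.45 (limma adjusted p = 0.0272 and 0.00113). Of the adaptors of sensing, Mavs, which serves RIG-I and MDA5, gave -0.56 (limma adjusted p = 0.000701), and Tmem173, which encodes STING, gave 0.50 (limma adjusted p = 0.000138). Both met the limit of p but not that of fold.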

How the data were processed

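TAMs were sorted from LLC tumors of WT and miR-21 null mice, and mRNA libraries of 4 samples per genotype were sequenced. The authors deposited a table of 53247 genes in CPM, raised by 0.0001, made per the submitters' processing notes with STAR and Partek 7.0 on mm10. The counting rule and strandedness are not given in the sources used here. Coordinates of all 35 members equal those of GENCODE vM21. Since 78.7% to 79.9% of low values (up to 20 reads, tolerance 0.1) were whole reads, counts were not recovered and no count test was run.

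Here log2(CPM + 1) was fitted with limma 3.58.1 (R 4.3.3, lmFit and eBayes with trend, two-sided, no covariate) over 13850 genes whose mean reached 1 per 1e+06 of the column totals, and p-values were adjusted over all of them by the Benjamini-Hochberg method. The fit was tested on simulated data. The study's own threshold was used, with the adjusted p limited to 0.005 and the fold change above 1.5. The score and the spread carry no test. The p-values measure the spread between these samples only.

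Values per sample are given for members past the threshold, for the 5 highest and 5 lowest log2 fold changes and for the 3 largest SDs in each genotype. Those of other members were added. 1 gene of the pathway list was left out of the counts and is not reported here. The other genes enter the counts, whether named or not. The members and lists were chosen with earlier results of these data known. Other settings tried were pseudocounts of 0.1 and 10, a filter of 5 or none, median-of-ratios or quantile rescaling, eBayes without trend, arrayWeights, a block for the replicate number, other thresholds, other scores and leaving out each sample. Promoter sequences are from RefSeq (GRCm38.p6). Figures were drawn with matplotlib 3.10.9.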

Additional observations from a re-analysis of the deposited data

Results flagged for a closer look

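Each member and the member score were examined within each genotype (72 groups of 4 samples) for a sample far from the others, that is, one whose gap to its neighbor exceeded the 95% limit of Dixon's test. Chance alone marks about 1 in 20 such groups. There were 12, and 11 of them were miR-21 null replicate 1, which lay above the other null samples each time.

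In miR-21 null replicate 1, Rsad2 was at 154 CPM (others 113 to 115), Oas2 at 96.2 CPM (others 70.5 to 71.0), Oas1a at 84.0 CPM (others 66.1 to 68.2) and Mx1 at 82.7 CPM (others 48.2 to 53.8). Isg15 was at 52.9 CPM there (others 40.6 to 41.2), Ifit3 at 51.7 CPM (others 31.7 to 33.4) and Ifit1 at 49.4 CPM (others 32.3 to 34.5). Among members at low values, Usp18 was at 15.4 CPM (others 10.3 to 11.1), Mx2 at 13.6 CPM (others 7.81 to 8.69) and Isg20 at 12.0 CPM (others 9.71 to 10.1). The member score of that sample was 0.33, with the others from -0.029 to -0.011. In WT replicate 1, Adar was at 113 CPM (others 105 to 106). The members share their libraries, so the 11 do not count as separate occurrences.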

How the results depend on the processing

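Of 17 refits, 14 gave 3 or 4 members past the threshold, and Zbp1, Herc6 and Dhx58 were among them in all 17. There were 6 with arrayWeights and 6 with the replicate block (both adding Oasl2, Rsad2 and Rtp4), and 3 to 6 on leaving out each sample, the 6 without WT replicate 1 (adding Oasl2, Ifitm3 and Rtp4). Over all genes these fits called 420 higher and 675 lower, 389 and 533, and 369 and 594. The block uses numbers that only follow the order of listing, so its calls stand for no known feature of the design. With an adjusted p at or under 0.05 there were 13 without a fold limit and 6 with one, and 17 pathway genes without it. The share of all genes past 0.05 with the fold limit was not taken, so nothing is read from that count. Pathway genes past the threshold numbered 3 to 4 on leaving out each sample. Non-overlapping members numbered 8 to 15 on leaving out each sample and 16 after subtracting the score, with or without miR-21 null replicate 1. The score difference was 0.040 to 0.22 and the median SD 0.140 to 0.250 on leaving out each sample. The cause of these changes was not tested, beyond fewer samples being fitted.

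The sign turned only in members near 0. On leaving out each sample, the log2 fold change was -0.027 to 0.26 for Mx1, -0.063 to 0.25 for Cmpk2, -9.7e-05 to 0.13 for Eif2ak2 and -0.043 to 0.058 for Adar, each lowest without null replicate 1. Without WT replicate 3, Cmpk2 was at -0.060. Mx2 was at -0.19 (without null replicate 1) to 0.11, and Ifi44 at -0.38 (without WT replicate 3) to 0.013. Adar gave -0.0094 with arrayWeights, Mx2 gave 0.071 by median of ratios and 0.12 by quantiles, and Ifi44 gave 0.021 by quantiles. Median of ratios moved the median of all genes from -0.10 to -0.0030 and the calls from 400 higher and 586 lower to 520 and 350. Under quantiles they were 491 and 337, and with a pseudocount of 10 they were 251 and 201.

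The replicate numbers follow the order in which the samples are listed, and for the null samples they differ from the numbers in the titles. Same-numbered samples deviated with correlations of 0.083, -0.11, -0.14 and 0.22. These cannot decide whether samples were paired, since the labels give no pairs, and no pairing is taken. Each symbol occurs once, so the highest row per symbol could not differ, and count tools were not run. Each member had at least 108 reads in every sample, and 4 samples per genotype limit the precision.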

Other observations

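Other genes known to answer to interferon were looked at beside the members. Tgtp1, a GTPase of the IRG family, had 2.77 to 5.35 CPM in WT and 41.2 to 53.6 CPM in miR-21 null samples, a log2 fold change of 3.38 (standard error 0.16, limma adjusted p = 1.53e-06). Gbp2, a guanylate-binding protein, had 112 to 185 CPM in WT and 782 to 1004 CPM in null samples, a log2 fold change of 2.62 (limma adjusted p = 4.01e-06). The lowest of the 15 tested GTPases was Gbp9, at 0.66 (limma adjusted p = 4.93e-05), which lies among the upper members of the antiviral group, between Rtp4 (0.63) and Dhx58 (0.68). Of the negative regulators in the pathway list, Socs1 had 4.12 to 6.38 CPM in WT and 21.1 to 33.4 CPM in null samples, and Socs3 gave 0.44 (limma adjusted p = 0.00245).

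The SD of log2(CPM + 1) over the GTPases had a median of 0.329 in WT and 0.0971 in null samples, beside 0.297 and 0.176 for the antiviral members. Of the markers of conventional dendritic cells, Clec9a was at 2.30 to 2.74 CPM in WT and 4.18 to 14.0 CPM in null samples (log2 fold change 1.26, limma adjusted p = 0.00532). The other markers on that list gave 1.06 for Xcr1, -0.50 for Flt3 and -0.41 for Zbtb46 (limma adjusted p = 0.117, 0.0759 and 0.0587), and none of the 4 passed the threshold. Clec9a was highest in null replicate 4, and the member score in null replicate 1. The part of dendritic cells in the member values was not tested.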
